A study of Mus musculus with 238 samples.

Results

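The subventricular zone (SVZ) of aged male mice was compared across all genes between animals given young mouse plasma (YMP) and animals given PBS. The members were the 7 libraries whose labels name the SVZ and the plasma experiment, out of 238 libraries in the series and 98 in that experiment. YMP mice 73, 77 and 81 gave 3 libraries and PBS mice 72, 76, 80 and 84 gave 4. All 7 animals were C57BL/6JN males of 19 months, and both solutions were given by injection behind the eye, the control being buffered saline without plasma. Each library came from the homogenised dissected tissue of 1 mouse, and the labels give no section level or dissection batch. The series also holds 13 other brain regions and the choroid plexus of these mice, with a few libraries missing, and the same regions from 9 females of that age that were fed freely (AL) or restricted (aDR).

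The SVZ lines the lateral ventricle and keeps a stem cell niche in the adult rodent brain. Astrocyte-like stem cells there give dividing progenitors and then neuroblasts that migrate to the olfactory bulb, beneath a sheet of ciliated ependymal cells. The choroid plexus hangs in the same ventricle, secretes cerebrospinal fluid, and consists of an epithelium rich in transthyretin around a fibroblast and vessel core. Septum, corpus callosum and striatum adjoin the SVZ, so a dissected sample can hold RNA of these tissues too. In bulk tissue, fewer cells of a type and less RNA per cell cannot be told apart.

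The libraries held between 2.36 and 21.9 M counts, with PBS mouse 84 the smallest and PBS mouse 72 the largest. Mitochondrial genes took between 1.81% and 2.38% of counts. The label was checked against the caudate putamen libraries of the same mice. The ependymal genes Foxj1 and Tmem212, the neuroblast genes Dcx, Dlx1, Dlx2 and Igfbpl1, the cell division gene Mki67 and the stem cell gene Thbs4 were higher in the SVZ library in 7 of 7 mice. The striatal genes Ppp1r1b and Drd1 were higher in the SVZ library in 0 of 7 mice. The SVZ libraries thus carried the markers of their label, together with striatal RNA, since Ppp1r1b ran from 601.5 to 2198 CPM in them (counts per M counts of the library total).

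The libraries stood apart by plexus content before any test. The 26 genes of a choroid plexus epithelium list took 0.0141%, 0.0161% and 0.0220% of counts in YMP mice 73, 77 and 81. They took 2.27%, 1.04%, 0.352% and 0.351% in PBS mice 72, 76, 80 and 84. Every PBS library was therefore at least an order of magnitude above every YMP library. The first principal component of log2 CPM, which held 38.6% of the variance, placed the YMP libraries between -35.2 and -31.4 and the PBS libraries at 50.7, 34.9, 11.2 and 1.84, in the order of mice 72, 76, 80 and 84. The YMP mice were therefore all on one side, and the PBS mice were spread in the same order as their library totals and, but for a near tie of mice 80 and 84, their plexus share.

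Plexus content of this size also varied among SVZ libraries that received no injection in this comparison. In AL mice 63, 66, 68 and 69 the same share was 0.0237%, 0.406%, 0.0511% and 0.417%. In aDR mice 61, 62, 64, 65 and 67 it was 1.17%, 0.627%, 0.0153%, 0.670% and 0.0408%. Low and high libraries thus occurred within both feeding groups. In the plasma experiment the corpus callosum, another region beside the ventricle, showed the same split as the SVZ, with 0.00908% and 0.0129% in YMP mice 77 and 81 and 2.12%, 1.52% and 0.573% in PBS mice 76, 80 and 84. Libraries labelled choroid plexus held between 0.927% and 1.20% in PBS mice, and 0.0300%, 1.69% and 0.808% in YMP mice 73, 77 and 81. Those libraries were therefore no richer in plexus epithelium than the SVZ library of PBS mouse 72, and the plexus library of YMP mouse 73 held almost none.

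**Figure D1:**
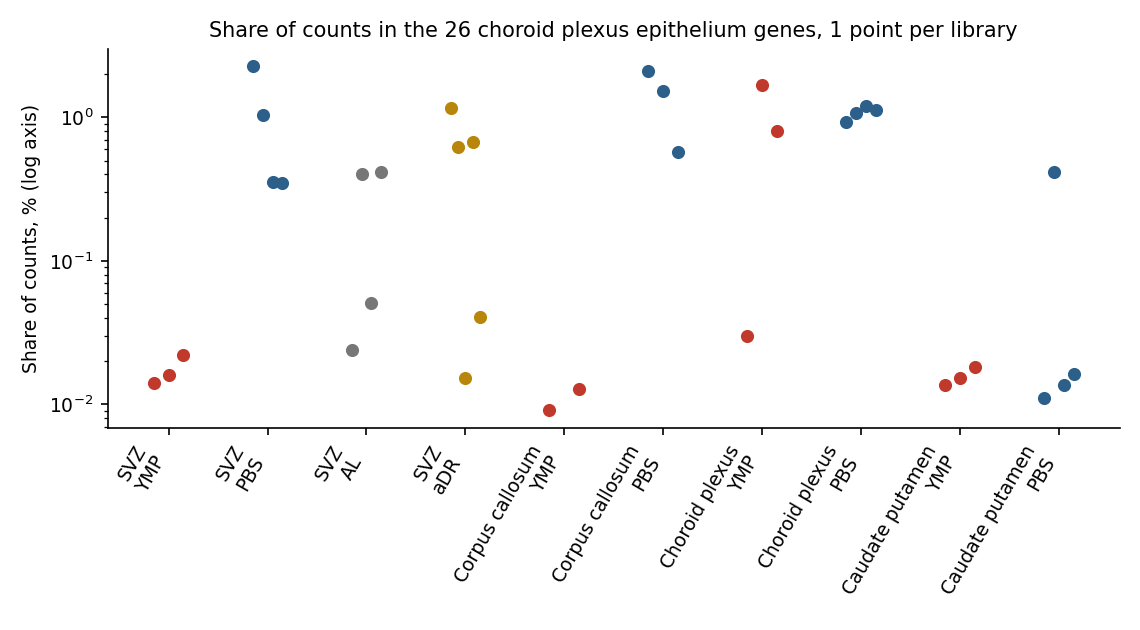
Share of library counts (%, log axis) taken by the 26 choroid plexus epithelium genes, 1 point per library, by region and group. SVZ libraries of YMP mice lie between 0.0141% and 0.0220%, those of PBS mice between 0.351% and 2.27%, and SVZ libraries of AL and aDR mice span both levels.

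Across all genes, edgeR's quasi-likelihood test found 0 of 14120 genes at a Benjamini-Hochberg adjusted p under 0.05 (0% called). The smallest adjusted p was 0.0519, shared by 22 genes, so the whole leading group stood just outside the threshold. At an unadjusted p under 0.05 there were 1910 genes, of which 795 were higher in YMP mice (5.63% of genes tested) and 1115 lower (7.9%). Other tools made calls at the same threshold: limma with voom called 4 genes, and DESeq2 called 504, with 161 higher (1.14%) and 343 lower (2.43%). Without PBS mouse 72, the library richest in plexus RNA, edgeR called 234 of 13723 genes, with 113 higher (0.823%) and 121 lower (0.882%). Of these, 173 were also called by DESeq2, which is 73.9% of the first list and 34.3% of the second, and all 173 had the same direction. The values below are those of the edgeR fit of all 7 libraries, and every statement of higher or lower in it describes genes that missed the adjusted threshold. Counts of list members at an unadjusted p under 0.05 stand beside shares of 5.63% higher and 7.9% lower over all genes tested.

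Genes enriched in choroid plexus were set apart from the rest. A gene counted as plexus-enriched when its mean in the plexus libraries of AL mice was at least 5 times the median over 13 other brain regions and at least 1 CPM, which took 255 genes, 190 of them tested. The median log2 fold change of YMP against PBS was -0.60 over the plexus-enriched genes and -0.0049 over the 13930 other genes. Among the plexus-enriched genes, 89 (46.8%) were lower and 11 (5.79%) higher at an unadjusted p under 0.05. Among the other genes, 1026 (7.37%) were lower and 784 (5.63%) higher. A drop of more than 1 on the log2 scale was estimated for 41.6% of the plexus-enriched genes and 3.37% of the others. A rise of that size was estimated for 6.84% and 0.725%. The plexus-enriched set thus leaned strongly to lower values. The other genes had a median near 0, but their larger changes were more often to lower values.

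The enriched set was not pure. It held 23 of the 26 plexus epithelium genes, 15 of the 25 genes of an ependymal list, and cortical genes such as Fezf2, which averaged 36.2 CPM in the AL plexus libraries against a median of 3.15 over the other regions. It missed Slc13a4, Trpm3 and Crhr2. Just inside the limit, Vwa3b had a ratio of 5.00 and a log2 fold change of -0.33, and Cfap206 a ratio of 5.03 and -0.50. Just outside, Iqub had 4.98 and -1.06, and Zbbx 4.96 and 0.0012. The 11 plexus-enriched genes that were higher at an unadjusted p under 0.05 were Ccn3, Fezf2, Crym, Psrc1, Ovol2, Rtn4rl2, Neurod6, Grp, Mas1, Spink8 and Trh, and none of them is in the plexus epithelium list. The plot of effect against p shows the enriched and the other genes side by side.

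**Figure D2:**
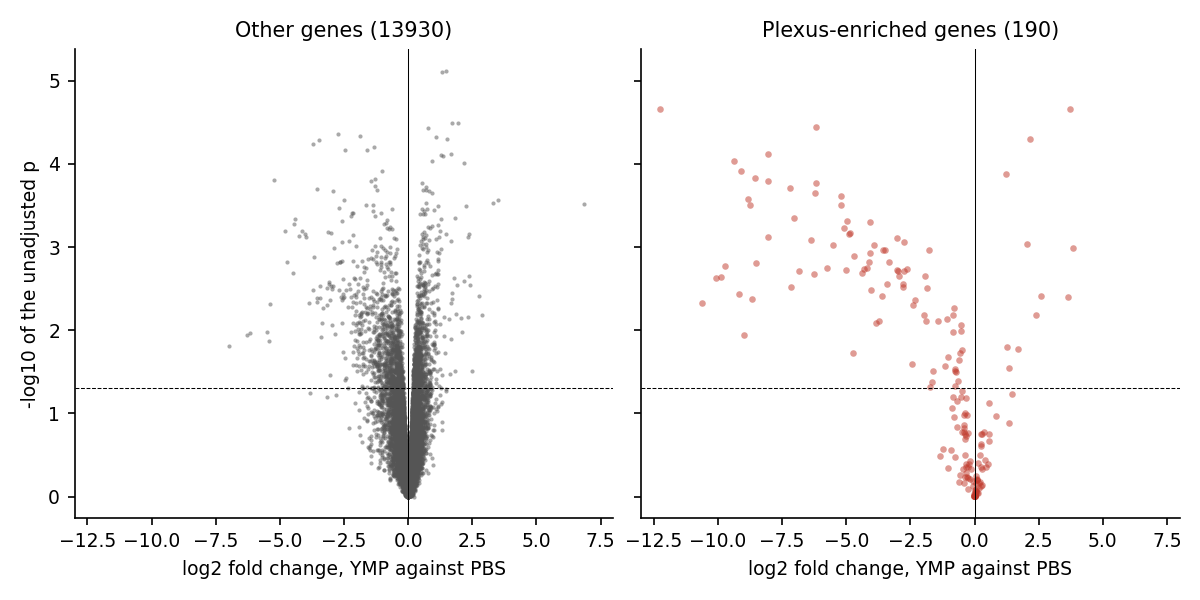
Log2 fold change of YMP against PBS (x axis) and -log10 of the unadjusted edgeR p (y axis) for the 13930 other genes and the 190 plexus-enriched genes, 1 point per gene, with the dashed line at 0.05. Among the plexus-enriched genes 89 lie above the line on the lower side and 11 on the higher side, and fitted changes of genes with 0 counts in YMP libraries depend on the prior count.

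Ttr, which encodes the thyroid hormone and retinol carrier transthyretin and is the most abundant message of plexus epithelium, gave the largest contrast of level. It stood at 0.756, 0.111 and 3.50 CPM in YMP mice 73, 77 and 81, from 3, 1 and 36 counts. It stood at 19578, 7968, 2533 and 2727 CPM in PBS mice 72, 76, 80 and 84. Every PBS library held far more Ttr than any YMP library, and the log2 fold change was -12.28 (SE 1.39, edgeR adjusted p = 0.0519). The size of the change rested on single libraries, at -14.6 without YMP mouse 81, which held 36 of the 40 YMP counts, and -11.36 without PBS mouse 72.

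F5, which encodes coagulation factor V, stood at 0.756, 0.332 and 0.874 CPM in the YMP mice and at 87.9, 50.8, 19.0 and 25.9 CPM in PBS mice 72, 76, 80 and 84. Its log2 fold change was -6.17 (SE 0.75, edgeR adjusted p = 0.0519), and the groups were far apart. Kcne2, a potassium channel subunit of the plexus, had 2 counts over the YMP libraries and 3905 over the PBS libraries, a ratio of 1167 (95% interval 323 to 9636, counting error only). Tmem72 had 2 counts against 3292, a ratio of 983 (272 to 8124), and the bicarbonate transporter gene Slc4a5 had 3 against 4005, a ratio of 798 (273 to 3869). For these genes the YMP libraries were at or near an empty reading, whatever their depth. With 0 counts in all YMP libraries, set to a floor of 3 counts per library, the secreted protein gene Wfdc2 was at least 23.7-fold lower, the cytochrome oxidase subunit gene Cox8b at least 45.0-fold, the roof plate regulator Lmx1a at least 15.6-fold and Bhmt, a methyltransferase of the methionine cycle, at least 7.54-fold lower. PBS mouse 72 set much of these sizes. Without it the bounds were 13.1 for Wfdc2, 16.8 for Cox8b, 8.61 for Lmx1a and 6.81 for Bhmt, and the ratios 701 for Kcne2, 481 for Tmem72 and 366 for Slc4a5.

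Other plexus genes kept a measurable level in YMP mice. Kl, which encodes klotho, ran from 2.43 to 3.88 CPM in YMP mice and from 72.9 to 554 in PBS mice. The homeobox gene Otx2 ran from 2.43 to 6.31 CPM against 12.7 to 61.0, and the chloride channel gene Clic6 from 19.7 to 39.5 CPM against 96.9 to 361. Of the 26 list genes, all 26 were lower at an unadjusted p under 0.05, and in 24 the groups did not overlap, against 6.89% of all genes tested in that direction. The exceptions to separation were Slc39a4 and Car12. The list median was -5.84, or -5.09 with the 3 genes at 0 counts set at their bound, against -0.0065 over all genes tested. Without PBS mouse 72, edgeR called 20 of the 26 lower, against 0.882% of all genes tested. DESeq2 on all 7 libraries called 23 of them lower, against 2.43% of all genes tested.

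Fibroblast genes, which mark meninges and the plexus stroma, were lower with them. Of 15 genes, 15 had a lower estimate and 11 an unadjusted p under 0.05, and the list median was -1.62. Igf2, a growth factor secreted by meninges and plexus, stood at 4.79, 2.88 and 3.88 CPM in the YMP mice and at 132, 52.9, 24.3 and 19.6 CPM in PBS mice 72, 76, 80 and 84. Its lowest PBS library was above every YMP library, with a log2 fold change of -3.98 (SE 0.76, edgeR adjusted p = 0.0936). Igfbp2, which encodes a binding protein for insulin-like growth factors, differed by -4.12 (SE 0.76), and the collagen-binding proteoglycan gene Lum by -3.56 (SE 0.55). Without PBS mouse 72 the changes of Igf2 and Igfbp2 were -3.18 and -3.31. Dcn and Col1a1 differed by -2.02 and -1.24, again with no overlap between the groups. The list's summed level was 222 to 393 CPM in YMP mice and 427 to 1385 in PBS mice, without overlap. The mean log2 CPM of the list was 3.93 and 4.42 in PBS mice 72 and 76 and 3.46 and 3.42 in mice 80 and 84, so the mice with more plexus RNA were also the higher ones here. The part of plexus and meninges in these values was not tested.

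Ependymal genes, which build the motile cilia of the ventricle wall, leaned lower in YMP mice, far less than plexus genes. Of the 25 list genes, 22 had a lower estimate and 7 were lower at an unadjusted p under 0.05, against 7.9% of all genes tested, and 0 were higher. Foxj1, the master regulator of motile cilia, stood at 39.3, 39.7 and 33.8 CPM in the YMP mice and at 54.3, 50.6, 38.6 and 36.1 CPM in PBS mice 72, 76, 80 and 84. The groups overlapped, and its log2 fold change was -0.28 (SE 0.16, edgeR unadjusted p = 0.13). Rarres2, Ccdc153 and Sntn were the 3 with a higher estimate, at 0.09, 0.08 and 0.0056, and Tmem212 differed by -0.06. The lower genes included Mia at -1.02 (SE 0.25), Mlf1 at -0.83 (SE 0.25) and the cilium gene Cfap52 at -0.80 (SE 0.21). The list median of -0.30 was small beside that of the plexus list, and the summed level overlapped, at 565 to 645 CPM in YMP mice and 560 to 795 in PBS mice. RNA of the ventricle wall was thus present in both groups, while Ttr, Kcne2, Tmem72 and Slc4a5 were near 0 counts in the YMP libraries.

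Estimates of neural stem cell genes went both ways. Of 19 neural stem cell genes 17 were tested, with a median of -0.16 and 2 higher and 1 lower at an unadjusted p under 0.05. Hes5, a target of Notch signalling, stood at 61.5, 43.7 and 45.6 CPM in the YMP mice and at 29.3, 31.8, 41.2 and 32.7 CPM in PBS mice 72, 76, 80 and 84. All YMP libraries were above all PBS libraries, with a log2 fold change of 0.58 (SE 0.16, edgeR unadjusted p = 0.0082). The growth factor receptor gene Fgfr1 differed by -0.46 (SE 0.15) with overlap. The structural markers Nes, Vim, Prom1 and Sox2 differed by -0.17, -0.24, 0.24 and -0.08, and the groups overlapped in all 4.

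Genes of cell division leaned higher in YMP mice. Of 19, 15 had a higher estimate and 3 an unadjusted p under 0.05, and the list median was 0.46. Mki67, which marks cycling cells, stood at 6.30, 5.75 and 3.59 CPM in the YMP mice and at 3.41, 2.84, 1.58 and 4.25 CPM in PBS mice 72, 76, 80 and 84. The groups overlapped, since PBS mouse 84 was above YMP mouse 81, and the log2 fold change was 0.77 (SE 0.34, edgeR unadjusted p = 0.0504). Top2a, a topoisomerase of dividing cells, stood at 8.32, 7.85 and 5.63 CPM against 5.45, 4.46, 4.23 and 5.53, a difference of 0.55 (SE 0.22, unadjusted p = 0.0342). YMP mouse 81 was the lowest YMP library for both and lay next to the PBS libraries. Rrm2 differed by 0.67 (SE 0.28) and Hmgb2 by 0.47 (SE 0.20), both with overlap, and the mitotic kinase gene Cdk1 went the other way at -0.61 (SE 0.79).

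Neuroblast genes varied more between mice than between treatments. Dcx, a microtubule protein of migrating neuroblasts, stood at 29.0, 26.2 and 33.7 CPM in the YMP mice and at 13.9, 19.2, 30.1 and 37.8 CPM in PBS mice 72, 76, 80 and 84. PBS mice 72 and 84 lay at either end of all 7 libraries, and the log2 fold change was 0.29 (SE 0.32). Dlx1, a homeobox factor of interneuron precursors, ran from 28.2 to 78.0 CPM in YMP mice and from 18.9 to 107 in PBS mice. Stmn1 was the clearest member at 521, 389 and 292 CPM against 261, 262, 235 and 224, a difference of 0.70 (SE 0.18, edgeR unadjusted p = 0.0047) with no overlap. Sox4 differed by 0.49 (SE 0.17) with overlap. No other gene among the 19 had an unadjusted p under 0.05, and the list median was 0.14.

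Growth factor and morphogen genes of the niche were lower where they differed. Of 29 genes in the list, 27 were tested, and 0 were higher and 8 lower at an unadjusted p under 0.05, with a median of -0.23. Tgfb2, a cytokine of the transforming growth factor beta family, stood at 21.7, 18.4 and 23.8 CPM in the YMP mice and at 81.2, 62.0, 42.0 and 36.1 CPM in PBS mice 72, 76, 80 and 84. Bmp7, a bone morphogenetic protein, stood at 14.1, 16.9 and 16.7 CPM against 47.4, 38.8, 23.0 and 20.4 CPM in the same order. In both genes no PBS library reached the YMP range, and the PBS mice fell in the order of their plexus share. The log2 fold changes were -1.41 (SE 0.28) for Tgfb2 and -1.06 (SE 0.30) for Bmp7, with edgeR unadjusted p of 0.0011 and 0.0074. Gdf11, a circulating factor studied in young blood, stood at 9.32, 5.86 and 12.3 CPM against 14.8, 16.6, 14.3 and 19.98, a difference of -0.82 (SE 0.26, unadjusted p = 0.0135). Vegfa differed by -0.55 (SE 0.24), and Igf1 went the other way at 0.63 (SE 0.32, unadjusted p = 0.0802).

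**Figure D3:**
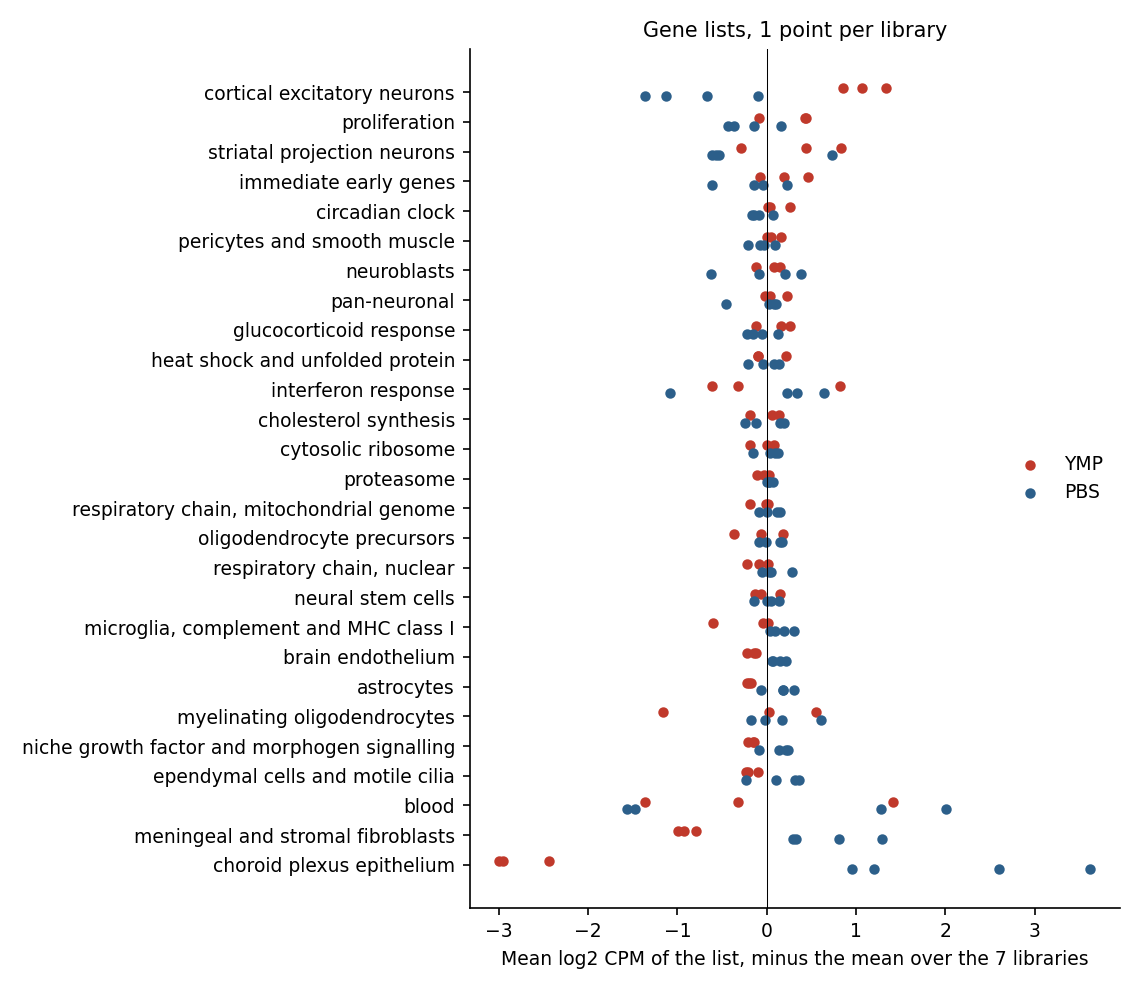
Mean log2 CPM of each of 27 gene lists per library, minus the mean over the 7 libraries, ordered by median log2 fold change from the highest list to the lowest. Plexus epithelium and fibroblast lists lie lower in all YMP libraries than in all PBS libraries, and the cortical excitatory list lies higher. The astrocyte, endothelial, microglia and niche signalling lists also lie lower in all YMP libraries, by less, and most other lists overlap.

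Cortical excitatory neuron genes were the list with the highest median, 1.88. Of 10 genes, 7 had a higher estimate and 3 a lower one. At an unadjusted p under 0.05, 6 were higher and 0 lower. In those 6 the groups did not overlap, against 6.62% of all genes tested in that direction. Neurod2, a factor of excitatory neurons, stood at 11.8, 9.51 and 10.6 CPM in the YMP mice and at 1.90, 0.811, 0 and 0.425 CPM in PBS mice 72, 76, 80 and 84. Fezf2, a factor of deep-layer projection neurons, stood at 43.1, 29.3 and 20.2 CPM against 7.597, 6.24, 8.19 and 5.10. Slc17a7, the vesicular glutamate transporter of cortex, stood at 126, 95.8 and 72.1 CPM against 25.3, 47.2, 7.66 and 6.80. Each YMP library held more of all 3 than any PBS library, with log2 fold changes of 3.30 (SE 0.54), 2.14 (SE 0.27) and 2.05 (SE 0.57). Neurod6 stood at 29.2, 21.7 and 16.6 CPM against 4.29, 0, 0 and 0.850, a difference of 3.66, and the estimate was 7.41 without PBS mouse 72, which held most of its PBS counts. Neurod2 likewise moved to 4.18 without that mouse and Slc17a7 to 2.72 without PBS mouse 76. Tbr1 differed by 1.71. Without PBS mouse 72 edgeR called 4 of the 10 genes higher, against 0.823% of all genes tested in that fit. The part of neighbouring tissue in this result was not tested.

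Striatal projection neuron genes leaned the same way with wide spread. All 21 had a higher estimate, but 1 had an unadjusted p under 0.05, and the median was 0.43. Ppp1r1b, the dopamine signalling protein DARPP-32, stood at 1521 CPM in YMP mouse 73, 2095 in mouse 77 and 819 in mouse 81. It stood at 2344 CPM in PBS mouse 72 and at 812, 687 and 604 CPM in mice 76, 80 and 84. PBS mouse 72 was above all YMP libraries, and PBS mouse 76 lay just under YMP mouse 81. Without PBS mouse 72 the list median was 0.97. Pdyn, which encodes the opioid precursor prodynorphin, differed by 0.81 (SE 0.23, edgeR unadjusted p = 0.0074).

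Glial genes were mostly lower or level. Of 16 astrocyte genes, 14 had a lower estimate and 5 an unadjusted p under 0.05. Gfap, the filament protein of reactive astrocytes and stem cells, stood at 538, 404 and 183 CPM in the YMP mice and at 1038, 710, 557 and 571 CPM in PBS mice 72, 76, 80 and 84. YMP mouse 73 lay just under the lowest PBS library, and the log2 fold change was -0.94 (SE 0.37, edgeR unadjusted p = 0.0351). S100b stood at 90.2, 72.2 and 71.2 CPM against 128, 121, 120 and 114, a difference of -0.64 (SE 0.11, unadjusted p = 0.000351). The astrocyte list summed to between 10999 and 11513 CPM in YMP mice and between 12755 and 13469 in PBS mice, without overlap. Myelin genes had a lower estimate in 19 of 19, yet 0 had an unadjusted p under 0.05. Mbp ran from 3274 to 12466 CPM in YMP mice and from 6839 to 12602 in PBS mice, with YMP mouse 81 the lowest of all, and without that mouse the list median was 0.14, against -0.20 with it.

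Among immune genes the smallest p belonged to a gene of antigen presentation. Cd74, the invariant chain of MHC class II, stood at 5.54, 2.99 and 3.11 CPM in the YMP mice and at 24.0, 30.6, 14.3 and 30.2 CPM in PBS mice 72, 76, 80 and 84. The lowest PBS library was more than double the highest YMP library, with a log2 fold change of -2.75 (SE 0.34, edgeR adjusted p = 0.0519). The class II genes H2-Aa, H2-Eb1 and H2-Ab1, looked up after the value of Cd74 was seen, differed by -3.47 (SE 0.44), -3.69 (SE 0.48) and -2.50 (SE 0.41), each with no overlap. H2-DMb1 differed by -1.36 (SE 0.49, edgeR unadjusted p = 0.0249) with overlap. Ciita, the regulator of class II genes, and H2-DMa differed by -0.01 and -0.02. The 24 genes of microglia, complement and MHC class I had a median of -0.17, with 0 higher and 4 lower at an unadjusted p under 0.05. The microglial markers C1qa, C1qb, C1qc and Tmem119 differed by -0.39, -0.25, -0.20 and -0.01, all with overlap. Interferon response genes had a median of 0.04, with 0 higher and 3 lower, and varied widely between mice.

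Vessel and general lists, blood aside, had medians within 0.3 of that of all genes. Of 20 endothelial genes, 0 were higher and 5 lower at an unadjusted p under 0.05, led by the tight junction gene Ocln at -0.94 (SE 0.21) and including Vcam1 at -1.08 (SE 0.41), an adhesion molecule of inflamed endothelium that the SVZ niche also expresses. Of the 20, 18 had a lower estimate, and the list summed to 532 to 588 CPM in YMP mice and 621 to 798 in PBS mice, without overlap. The vessel markers Cldn5 and Flt1 differed by -0.24 and -0.01. Pericyte genes had 0 of 12 at that level. Of 26 nuclear respiratory chain genes, 25 had a lower estimate and 4 an unadjusted p under 0.05, with a median of -0.16. Ribosomal, proteasome and cholesterol synthesis lists had medians of -0.04, -0.06 and 0.01, and 0, 1 and 2 members at an unadjusted p under 0.05. Pan-neuronal genes had a median of 0.13 with 1 higher member, Rbfox3, oligodendrocyte precursor genes -0.13 with 0, genes of the mitochondrial genome -0.13 with 1 lower member, mt-Nd6, and the 3 tested blood genes -1.17 with 0. The circadian clock list had a median of 0.20 and 2 higher members, Npas2 and Tef. Immediate early genes had 14 of 15 higher estimates and 2 at an unadjusted p under 0.05, Fosb and Fosl2, the glucocorticoid list had 1, Zbtb16, and the chaperone list had Hsph1 higher and Calr lower.

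Outside the plexus-enriched set, the 12 genes with the smallest p in each direction, at 5 CPM or more and with no overlap, were taken as the leading genes. Stx1a, a syntaxin of the presynaptic membrane, stood at 93.2, 76.8 and 76.3 CPM in the YMP mice and at 35.4, 24.5, 28.8 and 29.8 CPM in PBS mice 72, 76, 80 and 84. Serpini1, the neuronal protease inhibitor neuroserpin, stood at 319, 281 and 231 CPM against 111, 98.0, 124 and 114. Both genes held tight values within each group and were far apart between them, with log2 fold changes of 1.47 (SE 0.14) and 1.31 (SE 0.13) and an edgeR adjusted p of 0.0519 each.

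Among the other leading genes that were higher in YMP mice, Cntnap4, a cell adhesion gene of interneuron synapses, differed by 1.93 (SE 0.23), from 38.2 ± 9.76 CPM (SD, n = 3) in YMP mice against 10.01 ± 2.25 (SD, n = 4). Mpped1 stood at 115, 101 and 78.2 CPM against 36.2, 20.9, 28.8 and 32.7, a difference of 1.72 (SE 0.21). Satb1, a chromatin organiser, differed by 1.36 (SE 0.19), the convertase gene Pcsk5 by 1.68 (SE 0.23) and the neuropeptide binding protein gene Crhbp by 1.26 (SE 0.17). Lingo1, an inhibitor of axon growth and myelination, had the smallest change of the 12 at 0.77 (SE 0.09), and Dtl, a factor of DNA replication control, the largest at 2.16 (SE 0.30). Klf5, Nlrp10 and the secretogranin gene Scg2 differed by 1.10, 1.4998 and 0.92. All 12 stood higher in 3 of 3 YMP mice than in any PBS mouse, as the rule required.

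Among leading genes that were lower, Cd74 and Ctsc are genes of immune cells and Lum and Thbs2 genes of connective tissue. Slc13a4, a sulfate transporter of plexus and meninges, stood at 1.76, 2.54 and 1.94 CPM in the YMP mice and at 160, 94.5, 30.4 and 28.5 CPM in PBS mice 72, 76, 80 and 84, a log2 fold change of -5.23 (SE 0.78, edgeR adjusted p = 0.0688). The PBS mice fell in the same order as for Ttr but for the near tie of mice 80 and 84. With the plexus share as a covariate, the estimate for Slc13a4 was 0.0716 (edgeR adjusted p = 0.981). That share counts Slc13a4 itself among its genes, so this estimate cannot show what plexus content accounts for. In the fit without PBS mouse 72 and without the covariate, the estimate for Slc13a4 was -4.64. Nr2f2, a nuclear receptor of venous, meningeal and some neuronal cells, stood at 3.28, 3.10 and 3.79 CPM against 20.6, 20.6, 24.3 and 8.93, a difference of -2.47 (SE 0.33). Serpina3n, a protease inhibitor of reactive astrocytes, stood at 13.6, 9.07 and 10.6 CPM against 39.9, 27.7, 38.6 and 26.8, a difference of -1.61 (SE 0.21). The PBS values of Serpina3n did not follow the plexus share, with mice 72 and 80 near each other. Ctsc, the lysosomal protease cathepsin C, differed by -1.33 (SE 0.18), the matrix gene Thbs2 by -1.88 (SE 0.24), Parva by -1.45, Acacb by -1.30, Dact1 by -1.30, Mmp15 by -1.22 and Ctbp2 by -1.03.

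**Figure D4:**
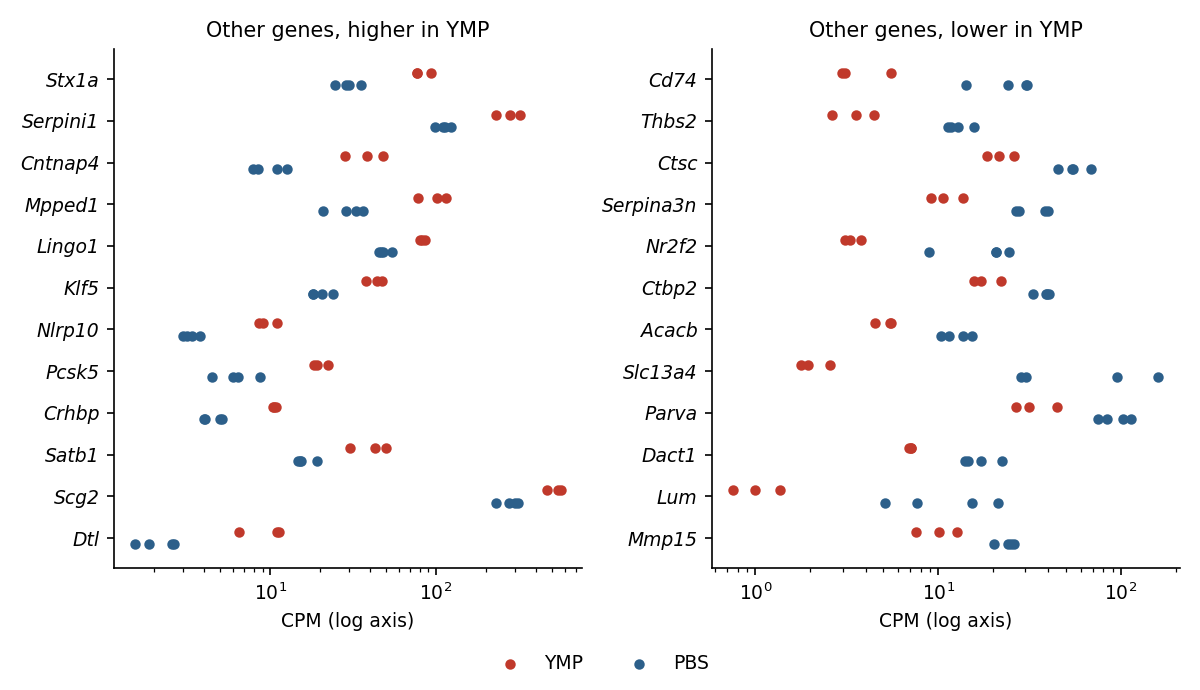
CPM (log axis) of the 12 leading genes in each direction outside the plexus-enriched set, 1 point per library. The YMP and PBS points of each gene do not overlap, which the choice of genes required.

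When the plexus share of each library was entered as a covariate, edgeR called 0 genes, and 1728 had an unadjusted p under 0.05, of which 1120 were higher and 608 lower. The lean to lower values in the fit without it thus turned to a lean to higher values. Because the share separated the groups completely, treatment and plexus content cannot be told apart in these 7 libraries. Normalization on genes outside the plexus-enriched set gave 16 calls, 9 higher and 7 lower.

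Genes enriched in other brain regions of AL mice, by the same 5-fold rule, were then followed in the SVZ. These sets were added after the cortical genes had been seen. Of 49 tested genes enriched in motor cortex, 24 (49.0%) were higher in YMP mice and 2 (4.08%) lower at an unadjusted p under 0.05, with a median of 0.87. Visual cortex had 25 of 65 higher, entorhinal cortex 40 of 105 and posterior hippocampus 23 of 58, while 14 entorhinal genes (13.3%) were lower. Anterior hippocampus was weaker, with 19 of 78 (24.4%) higher, 10 (12.8%) lower and a median of 0.14. The cortical and hippocampal sets can share genes, and that sharing was not counted. In the other direction, 87 of 303 genes of corpus callosum (28.7%), 67 of 258 of cerebellum (25.97%) and 25 of 98 of pons (25.5%) were lower. Their medians were 0.02, -0.27 and -0.48. In the corpus callosum set 13 genes (4.29%) were higher at an unadjusted p under 0.05. Its genes at that level thus leaned lower, while its median did not. Genes of caudate putamen, the tissue beside the SVZ, had 9 higher and 10 lower of 199, shares near those of all genes. The median of that set was 0.35, so its estimates as a whole leaned higher. The corpus callosum set shared 134 of its genes with the plexus-enriched set, and the other sets between 11 and 86. Genes of cortex and hippocampus were therefore more often higher, and genes of cerebellum and pons more often lower, than all genes tested, and the part of other tissues in the values of single genes was not tested.

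**Figure D5:**
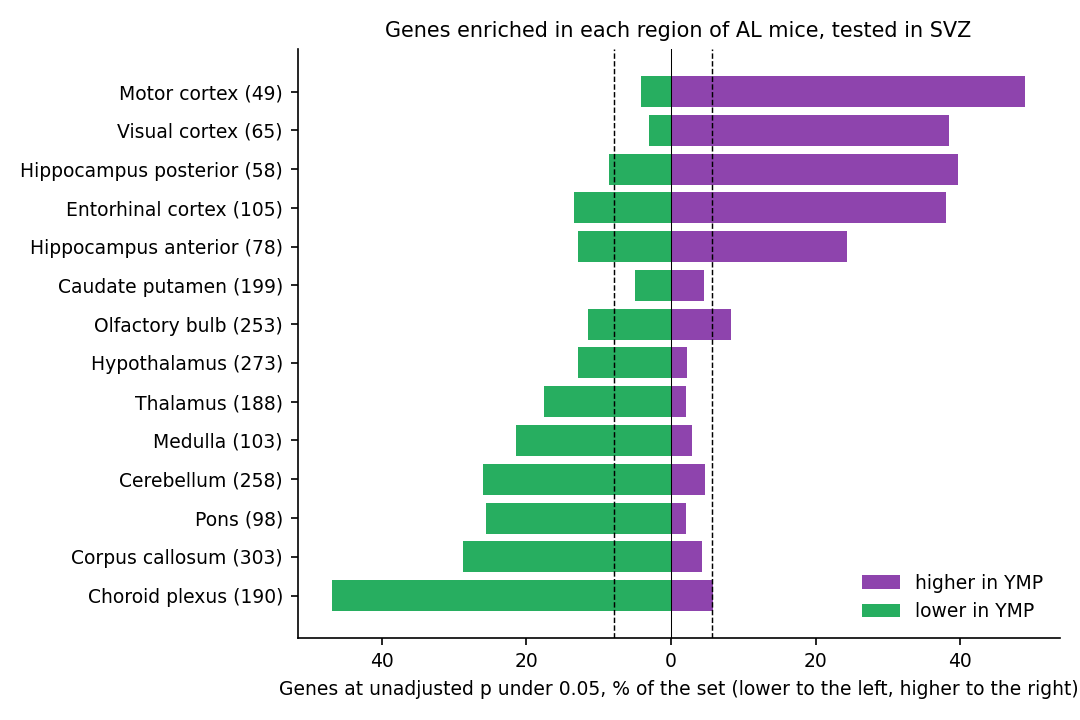
Percentage of tested genes at an unadjusted p under 0.05 in the SVZ comparison, lower (left) and higher (right) in YMP mice, for genes enriched in each region of AL mice, with the number tested in brackets and dashed lines at the shares over all genes, 5.63% higher and 7.9% lower. Cortical and hippocampal sets extend to the right, and plexus, corpus callosum, pons and cerebellar sets to the left.

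Some of the genes named above were read in the SVZ libraries of the diet animals, which received neither plasma nor PBS. Library values are in CPM of the plain library totals, and the genes were chosen after their values were seen. Ttr stood at 9.28, 2828, 248 and 2989 CPM in AL mice 63, 66, 68 and 69 and at 9280, 4940, 0.332, 4992 and 145 CPM in aDR mice 61, 62, 64, 65 and 67. Stx1a in the same order stood at 69.2, 42.3, 82.4 and 29.9 CPM and at 27.01, 21.8, 76.0, 24.5 and 62.8 CPM. Thus the 4 libraries with the least Ttr, of mice 63, 64, 67 and 68, were the 4 with the most Stx1a, and they came from both feeding groups.

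Several other genes among those read followed the same mice, while most leading genes are not given by library here. Mpped1 stood at 84.5, 25.7, 99.95 and 26.9 CPM in the AL mice and at 17.2, 22.1, 95.4, 25.7 and 57.3 CPM in the aDR mice. Fezf2 stood at 24.4, 4.65, 40.6 and 9.24 CPM and at 4.31, 4.66, 30.8, 5.51 and 17.1 CPM. The same 4 mice were again the highest for both genes, and they were also the 4 highest for Serpini1 and Satb1. Cd74 stood at 5.44, 23.9, 6.41 and 21.6 CPM and at 29.5, 22.9, 2.99, 29.9 and 9.90 CPM, with those 4 mice the lowest, as they were for Slc13a4, Igf2 and Nr2f2. Foxj1 stood at 31.6, 46.2, 28.2 and 47.2 CPM and at 47.1, 43.1, 33.6, 48.3 and 26.5 CPM, so this ependymal gene was also lowest in those 4 mice. Slc17a7 did not keep to the pattern, since aDR mouse 61 with the most Ttr had 93.6 CPM. The means of the plasma groups, on TMM-scaled library sizes, were set against the span of the 9 diet libraries on plain totals. Among the 24 leading genes outside the plexus-enriched set, both group means lay inside that span for 11. For the other 13 a single group mean lay outside it, the YMP mean in 11 and the PBS mean in 2. These scales differ slightly, so a mean near a limit could change sides. Stx1a had a YMP mean of 82.1 CPM against a highest diet library of 82.4 CPM. For Cntnap4 the YMP mean of 38.2 CPM exceeded the highest diet library, at 29.5 CPM, and for Scg2 the YMP mean of 526 CPM exceeded 418 CPM. The opposite levels of Ttr and Stx1a thus occurred without plasma injection, and their relation was not tested.

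The YMP effect in the SVZ was set against that in caudate putamen of the same 7 mice, to show where the SVZ differed from neighbouring tissue. The region by treatment term of edgeR was called in 0 of 14378 genes (0%), with 632 at an unadjusted p under 0.05 (4.4%). With mouse as a replicate block it was again called in 0 genes, with 762 at an unadjusted p under 0.05. The smallest p belonged to Npas1, a transcription factor of some inhibitory neurons, which stood at 2.27, 3.76 and 3.01 CPM in SVZ of YMP mice and at 1.02, 0.811, 0.792 and 0.425 in SVZ of PBS mice, and went the other way in caudate putamen. Its difference between regions was 3.16 (SE 0.47, adjusted p = 0.191). Cntnap4 followed, with 1.93 in SVZ and 0.04 in caudate putamen (adjusted p = 0.214). Wnt7b differed by 1.06 and Tpd52l1 by -0.95 between regions. In caudate putamen, PBS mouse 76 alone held plexus RNA, at 0.418% against at most 0.0163% in the other PBS mice. Plexus genes there had a median of -1.76 and cortical excitatory genes one of -1.26, the latter opposite in sign to the SVZ.

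Against the choroid plexus libraries of the same mice, the region by treatment term was called in 0 of 14547 genes (0%), with 654 at an unadjusted p under 0.05 (4.5%), and in 0 with the replicate block, with 568. Ttr had the smallest p, since its log2 fold change was -12.28 in SVZ and -0.29 in plexus, a difference of -11.94 (SE 1.91, adjusted p = 0.434). In plexus it stood at 127, 15081 and 6203 CPM in YMP mice 73, 77 and 81 and between 7349 and 9588 CPM in PBS mice, so 1 YMP library was near empty and another the highest. Nr2f2 differed by -2.19 (SE 0.39) and Thbs2 by -1.40 (SE 0.26) between the regions. Dmrt2, also among the smallest p, had 1.26 to 1.88 CPM in SVZ of YMP mice and 0 counts in SVZ of PBS mice, at least 2.66-fold higher with the floor of 3 counts per library, and was not tested in the plexus libraries alone. Of the 26 plexus genes, 21 had an unadjusted p under 0.05 for the difference, and the list median was -0.45 in the plexus libraries against -5.84 in SVZ. None of these differences passed adjustment, and the wide spread of plexus RNA among the YMP plexus libraries limits what 3 mice can show.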

How the data were processed

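RNA of dissected SVZ was made into full-length cDNA with Smart-Seq2 and into unstranded libraries with Nextera XT, per the labels' protocols. The authors deposited raw counts, in whole numbers, for 21076 genes and 238 libraries. Genome build GRCm38, Trim Galore 0.3.7, STAR 2.5.3a and DESeq2 are named in the submitters' processing notes, without their roles. Genes that overlap, have an antisense partner or near-identical copies are uncertain in unstranded counts. There were 0 unused columns, and 537 rows held no count. Libraries were grouped by the labels' region, treatment and mouse number. Each library of a group came from its own mouse. Replicate pairs differed beyond counting noise (chi-square per degree of freedom of at least 4.17), so none was merged.

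SVZ libraries of YMP and PBS mice were fitted alone with edgeR 4.0.16 in R 4.3.3 (quasi-likelihood test, filterByExpr with minimum count 10 and minimum total 15, TMM, no covariate, Benjamini-Hochberg adjustment at 0.05). The SE is the log2 fold change divided by the square root of F. CPM use TMM-scaled library sizes unless plain totals are named. Alternatives used DESeq2 1.42.0, limma 3.58.1 with voom, other normalizations and filters, the log2 plexus share as covariate, and each mouse left out. Region by treatment terms were fitted over both regions. Their pairing rests on the mouse number in the labels, taken to mark the same animal. Deviations of same-mouse libraries correlated at 0.189 (caudate putamen) and 0.118 (choroid plexus) on average, against -0.0772 and -0.0467 for other mice. Single same-mouse values ranged from -0.061 to 0.437 and from -0.131 to 0.387, so the averages are weak evidence of identity.

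The named genes were those with the smallest p (12 higher and 12 lower outside the plexus-enriched set, at a mean of 5 CPM or more and without overlap, and 6 plexus-enriched), members of 27 gene lists at an unadjusted p under 0.05, their first members, and the 4 smallest p of each region test. Members and lists were chosen with earlier results of these data known. Lists are described by counts and medians, without a test. Of 495 list genes, 2 had no row. Values of 2 other list genes are not reported here. The fitting code was tested on simulated counts with known changes. Intervals and floors cover counting error only, since reads carried no molecular identifiers.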

Additional observations from a re-analysis of the deposited data

Results flagged for a closer look

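Groups of 4 or 5 libraries were searched for a single library standing away from the others. The search covered library measures, the named genes and the gene lists in SVZ of PBS mice. It also covered the plexus share in SVZ of AL and aDR mice and in caudate putamen and choroid plexus of PBS mice. The YMP groups, with 3 libraries, were not searched. Of 65 groups of values examined, 4 were marked, where chance marks about 1 in 20. Satb1 in SVZ was 19.1 CPM in PBS mouse 84 and 14.7 to 15.4 CPM in the other PBS mice. The mean log2 CPM of striatal projection neuron genes was 8.44 in PBS mouse 72 and 7.09 to 7.17 in the other PBS mice, and that of pan-neuronal genes was 7.97 in PBS mouse 72 and 8.46 to 8.53 in the others. The share of plexus epithelium genes in caudate putamen was 0.418% in PBS mouse 76 and 0.0110% to 0.0163% in the other PBS mice. The cause of these values was not tested.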

How the results depend on the processing

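The 0 calls of the edgeR fit depended on the processing. The count was 17 with RLE normalization, 16 with normalization on other genes only, 504 with DESeq2, 4 with limma and voom, 41 without the filter on low counts and 19 with at least 5 CPM in 3 libraries. For plexus-enriched genes these counts were 4, 4, 76, 2, 15 and 4, and for other genes 13, 12, 428, 2, 26 and 15. With each mouse left out in turn, calls ranged from 0 to 234 over all genes, 0 to 43 for plexus-enriched and 0 to 191 for other genes. The highest values were those without PBS mouse 72, while leaving out YMP mouse 81 gave 8 and PBS mouse 84 gave 1. Genes at an unadjusted p under 0.05 ranged from 1116 (without YMP mouse 77) to 2354. Plexus enrichment set at 10 times, or taken from PBS libraries of the plasma experiment, leaves both sets at 0 by construction, since 0 genes were called in all, and tests nothing. Slc13a4 reversed to 0.0716 with the plexus share as covariate, and the other 29 named genes kept their direction in every alternative that gave a value. With that covariate 21 of the 30 estimates were smaller in size, and 13 of the 30 fell below 50% of their size. Pcsk5 shrank to 0.055, Acacb to -0.22, Parva and Ctsc to -0.32, Lum to -0.46 and Ttr to -5.90. The remaining estimates grew, among them Lingo1 from 0.7669 to 1.251, Klf5 from 1.095 to 1.721 and Stx1a from 1.466 to 1.779. The share counts Ttr, Slc13a4, F5 and Kcne2 themselves, so their estimates with it cannot show what plexus content accounts for. The region terms stayed at 0 calls under the alternatives, the replicate block included, which gave 762 (caudate putamen) and 568 (choroid plexus) genes at an unadjusted p under 0.05, except that leaving out PBS mouse 84 gave 1 call against choroid plexus (range 0 to 1). No pairing exists between YMP and PBS mice within SVZ. Median changes of plexus epithelium ranged from -6.48 to -4.64, of fibroblasts from -1.80 to -1.30 and of cortical excitatory neurons from 1.62 to 2.11, while those of myelin, interferon, blood, oligodendrocyte precursor, chaperone, ribosome and cholesterol lists crossed 0. The causes were not tested. Where YMP libraries had 0 counts, depth sets the bound.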
